A study of Mus musculus
Mus spretus with 18 samples.

Results

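The cytochrome P450 genes were followed through the tissues of an F1 hybrid mouse. Members were all genes whose symbol starts with Cyp, a number and a letter, which gave 103 of the 38924 genes in the expression table and 450 of 91472 skipped exon events with enough reads in at least 1 tissue. The members were taken by name and not by any measured value. The study crossed female C57BL/6J, a laboratory strain, with male SPRET/EiJ, an inbred strain of wild Mus spretus origin. F1 cells should therefore carry both genomes, and reads could be assigned to an allele. RNA-seq was made from cerebral cortex, heart, kidney, lung, spleen and liver of female F1 mice aged 8 weeks, and from F1 embryonic stem cells (ESC, separate clones), with 2 replicates each. An F1 fibroblast line was treated for 4 h with 0.1 µM pladienolide B (PladB), an inhibitor of the SF3B complex of the spliceosome, or with DMSO, again with 2 replicates each. The fibroblasts were 1 line, so its replicates measured the spread between dishes and libraries. By the study's methods all 18 libraries were of F1 cells of these strains. Liver replicate 1 gave nearly only C57BL/6J reads over a part of chromosome 7, as given below, and the reason was not tested. The strain labels of the liver libraries read C57BL/7J and C57BL/8J in place of C57BL/6J, and they were used as F1 libraries of the cross. By the study's methods the organs came from a pair of animals, and the liver data from an earlier study of the same animals by the same authors, so tissue and data set cannot be told apart for liver. Which library came from which animal is not given in the sources used here.

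Cytochrome P450 enzymes carry a haem group and insert oxygen into small lipophilic molecules. Most of them sit in the endoplasmic reticulum and receive electrons from P450 oxidoreductase, and a few sit in mitochondria and receive them from ferredoxin. Liver is the main site for clearing drugs and making bile acids, kidney and lung carry their own sets, and the adrenal cortex makes corticosteroids with mitochondrial and microsomal members. In mice many members lie in tandem clusters of close paralogs. Reads of such copies can be shared out between them by the counting. Levels and allelic shares of single members within the Cyp2a, Cyp2b, Cyp2c, Cyp2d, Cyp2j, Cyp3a, Cyp4a and Cyp4f clusters are therefore uncertain.

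Both libraries of a tissue expressed all 4 of the markers fixed for it (Alb, Apoa1, Ttr and Fgb in liver, Umod, Slc12a1, Slc34a1 and Lrp2 in kidney), and junction reads in the exon tables ranged from 45055286 to 128494506 per tissue library and from 121091735 to 144154268 per fibroblast library. Kidney replicate 2 stood apart through adrenal genes. Of 10 adrenal cortex and medulla markers, all were at 1 TPM (a transcript level scaled for transcript length and library size) or more in kidney replicate 2, with a sum of 2361 TPM, against 4 of 10 and a sum of 209 TPM in kidney replicate 1. Star, which carries cholesterol into mitochondria, stood at 561 TPM in kidney replicate 2 and 1.77 TPM in kidney replicate 1, and Th, an enzyme of catecholamine synthesis, at 12.9 and 0.0669 TPM. The markers of kidney itself summed to 10424 and 10151 TPM. Liver replicate 1 stood apart in its alleles on proximal chromosome 7. Over 112 neighbouring genes between chr7:14121585 and chr7:35432607 (mm10, 21.3 Mb), 95% or more of its allelic junction reads were C57BL/6J at every gene, with a median of 100%. In liver replicate 2 the median over the same genes was 51.9%, and in the kidney and lung libraries it lay between 49.9% and 51.9%. No other library of these 3 tissues had such a run of more than 5 genes, so neither kidney nor lung replicate shared it. The segment holds 13 members, from Cyp2s1 to Cyp2t4, so allelic results for these members are given by library.

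Transcript levels followed the organ. Summed over the members, liver reached 37249.8 and 32769.9 TPM in its 2 libraries, which is 3.72% and 3.28% of all transcripts. Kidney summed to 4967 and 6488 TPM, and to 4966 and 4905 TPM without the 6 steroid synthesis genes. Lung summed to 4699.9 and 4688 TPM. The cortex (567 and 581 TPM), spleen (389.5 and 310.0 TPM), heart (260.0 and 303 TPM) and ESC (280.4 and 152 TPM) libraries were far lower, and DMSO fibroblasts reached 843 and 838 TPM. Each liver library held 72 members at 1 TPM or more and 44 at 100 TPM or more, while no heart, spleen or ESC library held a member at 100 TPM. In bulk tissue, more cells of a type and more RNA per cell cannot be told apart.

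**Figure D1:**
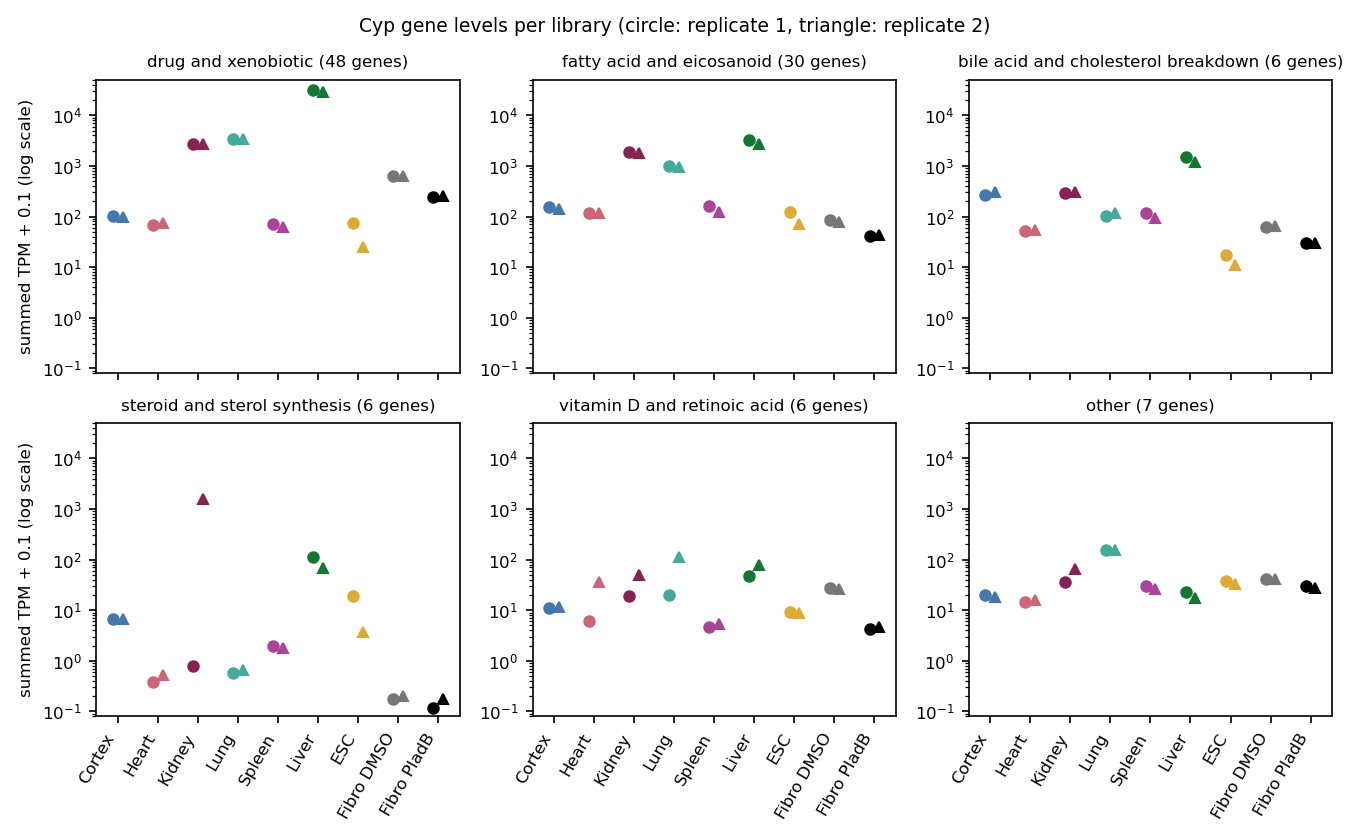
Summed TPM + 0.1 (log axis) of the members in 6 groups of roles, for each of the 18 libraries, where circles are replicate 1 and triangles replicate 2. Liver is highest for drug, fatty acid and bile acid enzymes, and the steroid synthesis genes differ between the 2 kidney libraries.

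Of the 103 members, 94 reached a mean of 0.5 TPM in at least 1 tissue, and liver was the highest tissue of 55 of them, kidney of 15, lung of 9, ESC of 6, spleen of 5 and cortex of 4. The other 9 members (Cyp2b19, Cyp2c53-ps, Cyp2c65, Cyp2c66, Cyp2j13, Cyp2w1, Cyp4a28-ps, Cyp4a29-ps and Cyp4a30b-ps) stayed below that level, and Cyp4a28-ps was listed at 0 in every tissue library. The test compared log2(TPM + 0.1) of each tissue with the mean of the other 6 tissues in limma over 23435 genes, of which 89 were members, and called a gene higher at a Benjamini-Hochberg adjusted p under 0.05 and a log2 difference of 1 or more. The pseudocount makes these differences smaller than the true ones for genes that are near 0 elsewhere. The filter kept genes with 0.5 TPM in both replicates of a tissue, so a member high in a single tissue passed through that tissue. In liver 65 of 89 members were called higher, against 7.79% of all genes tested. With libraries scaled by the median of ratios it was 69 members and 18.6% of all genes. In kidney 31 were (16.3% of all genes), in lung 19 (25.1%), in cortex 8 (35.4%), in ESC 8 (36%), in spleen 5 (26.1%) and in heart 2 (11.3%). The median member was 6.77 log2 units above the other tissues in liver while the median of all genes was 1.45 below, and in the other 5 organs and ESC the members' median lay between -2.01 (heart) and 0.36 (kidney). At the other scaling the all-gene median in liver lay at -0.37.

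Drug and xenobiotic enzymes made up the largest share of the liver signal. Of 44 such members tested, 41 were called higher in liver, 2 lower and 1 neither, while 7.79% of all genes were higher and 65.3% lower. Cyp2e1, which oxidises ethanol and small solvents, was the most abundant member at 9041 and 6814 TPM in liver (mean 7927 ± 1575 TPM, SD, n = 2), at 195 and 154 TPM in kidney, and at 18.6 TPM or less in every other library. It lies at chr7:140763819-140774990 (mm10), outside the segment of liver replicate 1. Cyp3a11, a broad drug-metabolising enzyme of the Cyp3a group at chr5:145854607-145879854, followed with 4819 and 5072 TPM in liver and no more than 2.16 TPM elsewhere. All libraries outside liver thus sat below its liver libraries by a wide margin, with a log2 difference of 14.61 ± 0.36 (SE, limma adjusted p = 3.65e-10).

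The Cyp2c group filled most of the next ranks in liver. Cyp2c70, which hydroxylates bile acids in mice, stood at 2351 and 2132 TPM, Cyp2c54 at 972 and 757 TPM, Cyp2c50 at 931 and 736 TPM, Cyp2c37 at 956 and 669 TPM and Cyp2c69 at 706 and 981 TPM. Cyp2c70 was at 0.725 and 1.00 TPM in kidney, and the other four were at 0.890 TPM or less there. Cyp2d26 of the Cyp2d group was shared between organs, with 1677 and 1454 TPM in liver and 327 and 303 TPM in kidney. Cyp2a12, a steroid and drug hydroxylase, was at 1002 and 853 TPM in liver and at most 0.969 TPM elsewhere. Cyp1a2, the liver member of the pair induced through the aryl hydrocarbon receptor, stood at 748 and 713 TPM in liver, while its neighbour Cyp1a1 was at 0.834 and 1.08 TPM there and had its highest mean in lung, at 13.7 and 19.7 TPM. The ESC libraries differed for Cyp1a1, at 24.8 and 1.87 TPM.

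Several members differed between the liver libraries. Cyp2a4 was at 74.1 and 269 TPM, Cyp2a22 at 84.7 and 26.0 TPM, Cyp2b13 at 368 and 145 TPM and Cyp3a16 at 106 and 246 TPM. Cyp7a1 (163 and 71.3 TPM), Cyp26a1 (20.1 and 42.7 TPM) and Cyp26b1 (0.592 and 8.51 TPM) differed as well. Cyp2a4, Cyp2a22 and Cyp2b13 lie in the chromosome 7 segment in which liver replicate 1 gave reads of the C57BL/6J allele, and the other members named here do not. Whether the segment had a part in these differences was not tested.

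**Figure D2:**
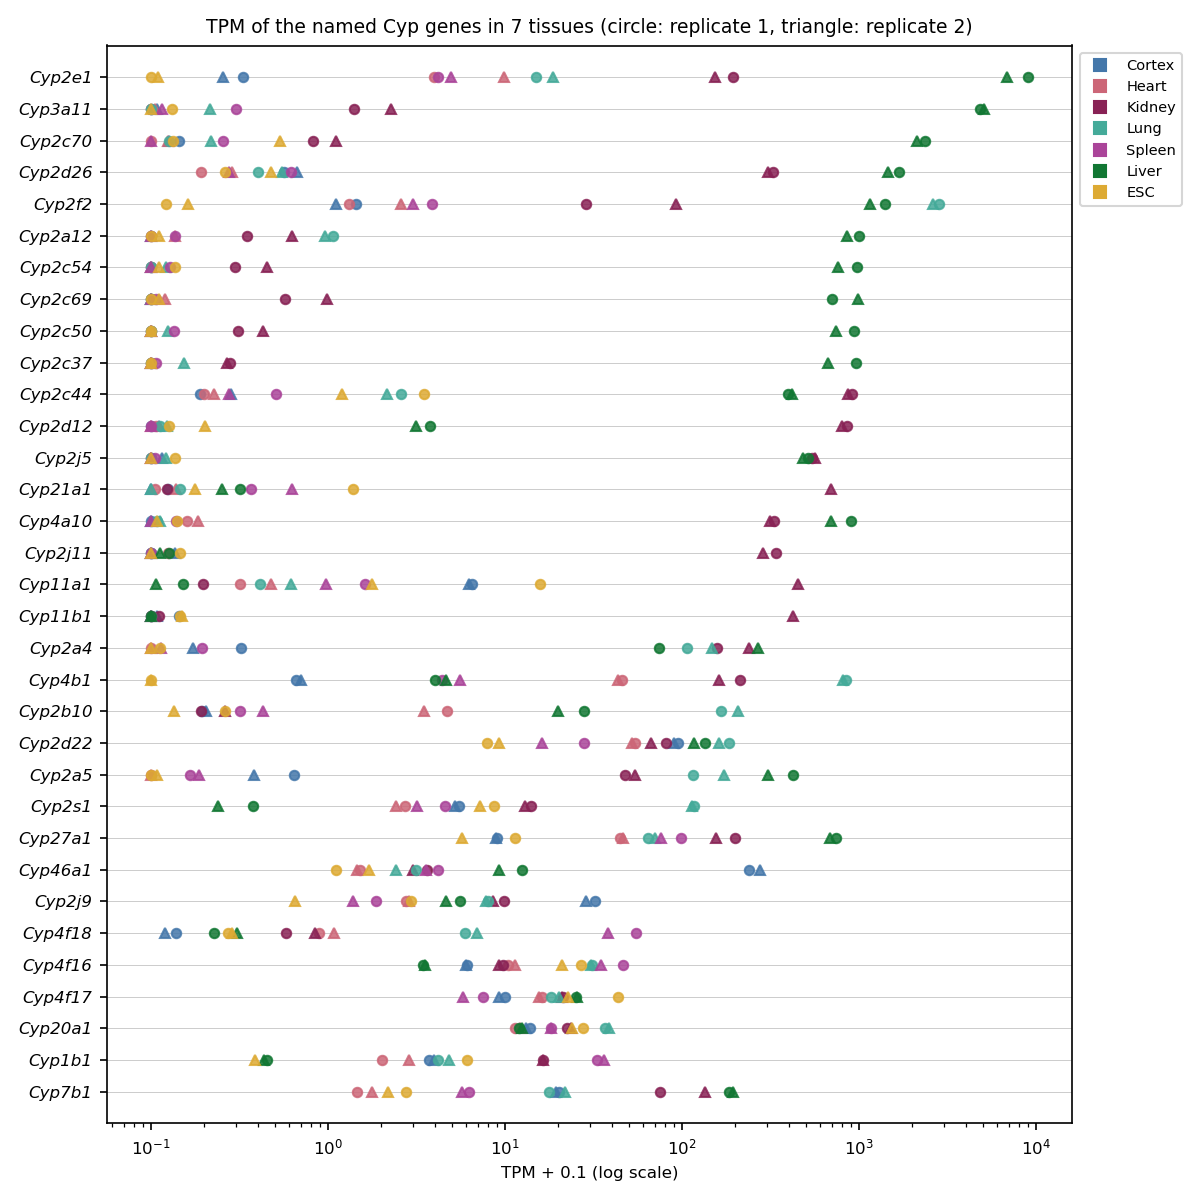
TPM + 0.1 (log axis) of 33 members in the 14 tissue libraries, coloured by tissue, with circles for replicate 1 and triangles for replicate 2. Liver leads from Cyp2e1 to Cyp2d26, lung leads for Cyp2f2 and Cyp4b1, kidney for Cyp2c44, Cyp2d12, Cyp2j5 and Cyp2j11, and Cyp21a1, Cyp11a1 and Cyp11b1 are high in kidney replicate 2 alone.

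The bile acid and cholesterol enzymes were called higher in liver in 6 of 6, against 7.79% of all genes. Cyp7a1, the rate-limiting enzyme of bile acid synthesis, was at 163 and 71.3 TPM in liver and at most 0.0583 TPM in any other tissue library (log2 difference 9.92 ± 0.24, limma adjusted p = 3.44e-10). Cyp8b1, which makes cholic acid, stood at 343 and 198 TPM, and Cyp27a1, the mitochondrial sterol 27-hydroxylase, at 738 and 685 TPM. Cyp27a1 was also among the leading members in heart (44.5 and 46.0 TPM), lung (64.2 and 70.4 TPM) and spleen (98 and 75.7 TPM). Cyp46a1, the cholesterol 24-hydroxylase of neurons at chr12:108334268-108362234, was the top member of cortex with 239.8 and 274 TPM, and liver followed with 12.4 and 9.17 TPM. Its level in cortex lay 6.40 ± 0.18 log2 units above the other tissues (limma adjusted p = 6.24e-10), and its liver level also passed the test (1.06 ± 0.18).

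Fatty acid and eicosanoid enzymes were called in several organs. Of 26 tested, 14 were higher in liver and 13 in kidney, where 7.79% and 16.3% of all genes were. A further count of 7 in lung and 6 in cortex stood beside 25.1% and 35.4% of all genes, and some members were called in more than 1 organ. Cyp4a10, a fatty acid omega-hydroxylase regulated through PPARalpha, was at 901 and 694 TPM in liver and at 328 and 313 TPM in kidney. Cyp2j5 had similar TPM in those organs, with 516 and 482 TPM in liver and 538 and 563 TPM in kidney, and their log2 difference of -0.14 ± 0.20 did not pass the test. The median of all genes for liver minus kidney was -1.04 log2 units, and the Cyp2j5 difference contains that shift. Cyp2j11 was found in kidney, with 338 and 286.6 TPM, and at most 0.0448 TPM in any other tissue library. Cyp4x1 (16.7 and 16 TPM) and Cyp2j12 (4.91 and 4.17 TPM) were found in cortex, and Cyp2j9 was highest there at 31.9 and 28.6 TPM. Cyp4f18, an enzyme that acts on leukotriene B4 in leukocytes, was highest in spleen at 55.1 and 37.8 TPM, followed by lung at 5.81 and 6.79 TPM.

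Kidney had leading members of its own. Cyp2c44, an arachidonic acid epoxygenase of the tubule, stood at 914 and 866 TPM in kidney against 394 and 419.7 TPM in liver (log2 difference of liver minus kidney -1.13 ± 0.45, limma adjusted p = 0.0449). The median of all genes for liver minus kidney was -1.04 log2 units, and -0.006 with libraries scaled by the median of ratios. The Cyp2c44 difference thus lay close to the shift of all genes at the scaling used. Cyp2d12 at chr15:82555043-82559413 stood at 856 and 803 TPM in kidney against 3.66 and 3.03 TPM in liver, and at or below 0.101 TPM elsewhere (liver minus kidney -7.92 ± 0.23, limma adjusted p = 2e-09). The 2 kidney libraries did not overlap with any other library for either gene. Cyp24a1, which breaks down active vitamin D, was at 8.87 and 26.3 TPM in kidney and at most 0.290 TPM in the other tissues. Cyp27b1, which makes it, was at 3.22 and 3.16 TPM in kidney, and ESC replicate 2 reached the same level at 3.26 TPM. Leaving out kidney replicate 2 gave 28 members called higher in kidney and leaving out kidney replicate 1 gave 35, against 31 with both.

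Steroid synthesis genes split the kidney libraries. Cyp11a1, which starts steroid synthesis by cleaving the cholesterol side chain, was at 0.0960 and 450.3 TPM in kidney replicates 1 and 2. Cyp21a1, the steroid 21-hydroxylase, was at 0.0227 and 694 TPM, Cyp11b1, which makes corticosterone, at 0.0102 and 423 TPM, and Cyp11b2, which makes aldosterone, at 0.00749 and 14.2 TPM. The pseudogene Cyp21a2-ps was at 0.0088 and 29.2 TPM. These 5 members moved with the adrenal markers given above, which were all at 1 TPM or more in kidney replicate 2. Cyp21a1, Cyp11b1 and Cyp11b2 did not pass the filter, which asked for both replicates, and Cyp11a1 was not called in kidney (log2 difference 3.22 ± 2.05, limma adjusted p = 0.192). Without kidney replicate 1, Cyp11a1 was called higher in kidney by 8.80 log2 units, and without kidney replicate 2 its difference was -2.36 and not called. Cyp17a1, which adrenal glands of adult mice are known to lack, was at 0.539 and 0.626 TPM in kidney and at 113 and 67.2 TPM in liver. Cyp24a1, Cyp26b1 (2.69 and 15.9 TPM), Cyp2f2 (28.6 and 91.8 TPM) and Cyp7b1 (75.1 and 134.8 TPM) were also higher in kidney replicate 2, and the part of the adrenal genes' source in this was not tested.

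**Figure D3:**
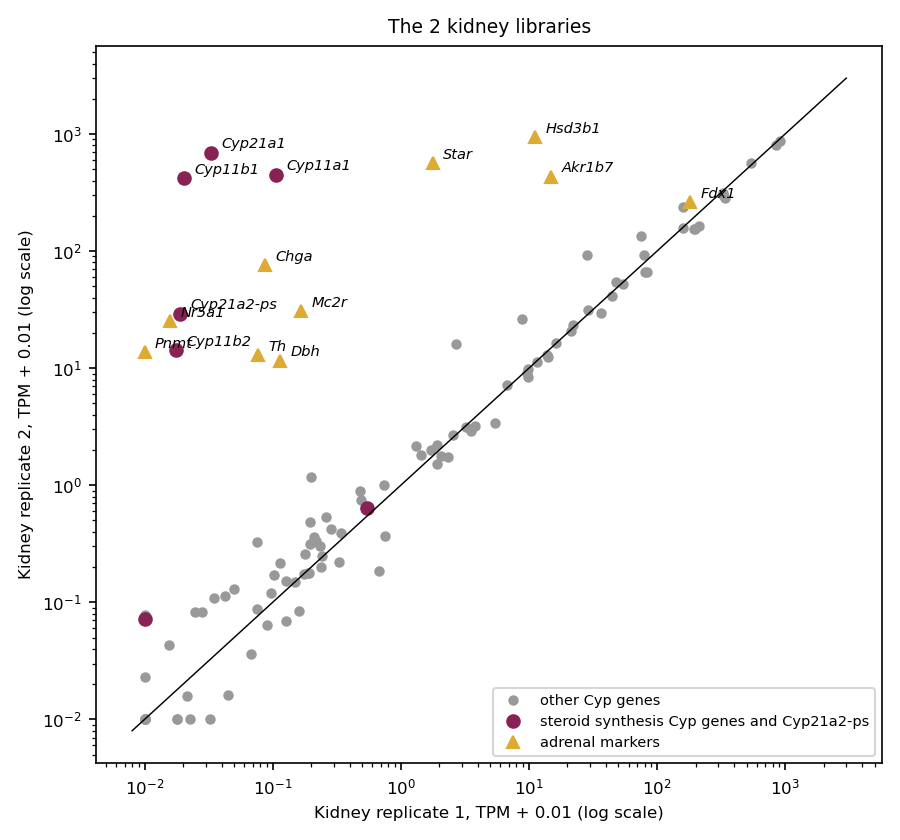
TPM + 0.01 of the members and of 10 adrenal markers in kidney replicate 1 (x axis) and kidney replicate 2 (y axis), both on log axes, with the diagonal of equal levels. Most members lie along the diagonal, while Cyp21a1, Cyp11a1, Cyp11b1, Cyp11b2, Cyp21a2-ps and most adrenal markers lie far above it.

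Vitamin D and retinoic acid enzymes had 2 of 5 members called higher in liver, 2 in kidney, 1 in lung and 1 in ESC. The shares of all genes were 7.79% in liver, 16.3% in kidney, 25.1% in lung and 36% in ESC. Cyp2r1, a vitamin D 25-hydroxylase, was highest in liver at 27.6 and 25.7 TPM (log2 difference 4.71 ± 0.16, limma adjusted p = 2.86e-09), and Cyp26a1, which clears retinoic acid, at 20.1 and 42.7 TPM in liver. Cyp26b1, its paralog outside liver, differed between replicates in most organs, with 18.6 and 109 TPM in lung, 4.84 and 35.3 TPM in heart and 0.592 and 8.51 TPM in liver. It passed the test in lung (3.18 ± 1.04, limma adjusted p = 0.021).

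In lung a few genes carried most of the signal. Cyp2f2, the naphthalene-oxidising enzyme of club cells at chr7:27119955-27133660, was at 2816 and 2600.2 TPM in lung and made up 59.9% and 55.5% of all member transcripts there. Its liver level was lower, at 1394 and 1148 TPM, and both organs passed the test against the rest. Cyp4b1 was at 839 and 807 TPM in lung, 211 and 162 TPM in kidney and 3.90 and 4.55 TPM in liver. Cyp2b10 (166 and 207 TPM), Cyp2s1 (117 and 114 TPM) and Cyp2d22 (184 and 162 TPM) were highest in lung as well, and Cyp2a5 (115 and 173 TPM) was second there to liver (421 and 304 TPM). The lung libraries lay above all other libraries for Cyp2f2, Cyp4b1, Cyp2b10, Cyp2s1 and Cyp2d22. Cyp2d22 was also the leading member of heart (53.7 and 51.9 TPM) and the second of cortex (94.6 and 90.0 TPM).

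Spleen and ESC had low levels of a few members. Besides Cyp27a1 and Cyp4f18, spleen held Cyp4f16 at 46.5 and 34.5 TPM and Cyp1b1 at 33.0 and 36.3 TPM. In ESC the leading members were Cyp4f17 (43.5 and 22.6 TPM), Cyp20a1, a member without a known substrate (27.5 and 23.9 TPM), and Cyp4f16 (26.7 and 20.9 TPM). Cyp4f17 in ESC was called at a log2 difference of 1.09 ± 0.19 (limma adjusted p = 0.000388), which fell to 0.62 and lost its call without ESC replicate 1. Cyp2b23, at 31.3 and 8.16 TPM, was found in ESC, and reached 0.300 TPM at most in the other tissues.

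Liver and kidney were also compared directly. Of 89 members, 57 were higher in liver, against 5.73% of all genes, and 13 were higher in kidney, against 49.9% of all genes. The all-gene median of liver minus kidney was -1.04 log2 units and the members' median 2.83. With scaling by the median of ratios 64 members were higher in liver, against 15.4% of all genes, and 9 in kidney, against 22.7%. By role, 37 of 44 drug enzymes, 11 of 26 fatty acid enzymes and 5 of 6 bile acid enzymes were higher in liver. Members higher in kidney included Cyp2j11 (-11.35 ± 0.23), Cyp2d12 (-7.92 ± 0.23), Cyp24a1 (-7.27 ± 0.41), Cyp4b1 (-5.42 ± 0.15) and Cyp2s1 (-5.49 ± 0.23), all on the log2(TPM + 0.1) scale of liver minus kidney. Without kidney replicate 2 the counts were 59 and 12, and without kidney replicate 1 they were 56 and 17.

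The tandem clusters were not equally uniform. Clusters were taken as runs of at least 3 members with less than 1 Mb between neighbours. In the Cyp2c cluster (chr19:39006940-40187286, 15 members) all 12 members that reached 0.5 TPM were highest in liver, and so were all 8 of the Cyp3a cluster (chr5:145345149-146114978). In the Cyp2d cluster (chr15:82370527-82794452) 7 of 9 members were highest in liver, Cyp2d12 in kidney and Cyp2d22 in lung. The Cyp4f cluster (chr17:32452697-32965716) was mixed, with 3 of 8 members highest in liver, 2 in spleen, 2 in ESC and 1 in lung. The Cyp2j cluster (chr4:96042660-96664171) had 3 of its 6 expressed members highest in kidney, 2 in cortex and 1 in liver. Of the 12 expressed members of the cluster on chromosome 7 (chr7:25802469-27158564), 6 were highest in liver, 3 in lung, 2 in ESC and 1 in kidney.

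The redox, receptor and haem lists were tested in the same way. For all genes, 7.79% were called higher in liver and 65.3% lower, 16.3% higher in kidney and 25.1% higher in lung. The all-gene median in liver was -1.45 log2 units, and -0.37 with scaling by the median of ratios. The liver differences of these lists contain that shift, and they are given without that scaling. Of 6 redox partners tested, 2 were higher in liver and 1 lower, 3 were higher in kidney and 2 in lung. P450 oxidoreductase, Por, was higher in kidney (1.13 ± 0.07, limma adjusted p = 4.4e-07) and lung (1.46 ± 0.07), and its liver difference of 0.66 ± 0.07 stayed under the log2 difference of 1. Among 10 receptors and liver factors, 9 were higher in liver and 7 in kidney. Nr1i3, the constitutive androstane receptor that turns on Cyp2b and Cyp3a genes, was higher in liver by 8.86 ± 0.62 and in kidney by 2.18 ± 0.62. Hnf4a was higher in kidney by 8.80 ± 0.42 and in liver by 8.03 ± 0.42. Of 8 haem synthesis genes, 2 were higher in liver (Alad, 1.19 ± 0.28, and Cpox, 1.16 ± 0.32), and Alas1, which limits haem synthesis, was not called there (0.33 ± 0.21).

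In fibroblasts 20 members passed the filter, and Cyp1b1, which oxidises oestrogens and xenobiotics, made up 73.1% and 73.4% of the member transcripts of the DMSO libraries. After PladB 8 of 20 members were lower, against 53% of 14552 genes tested, and 0 were higher, against 4.54% (limma, adjusted p under 0.05 and a log2 difference of 1 or more). An unadjusted p under 0.05 was found for 19 of the 20 members, and for 12819 of the 14552 genes. Cyp1b1 was at 616 and 615 TPM with DMSO and at 228 and 237 TPM with PladB (log2 difference -1.40 ± 0.03, limma adjusted p = 4.97e-06). Cyp26b1 went from 24.8 and 23.4 TPM to 2.62 and 2.83 TPM (-3.10 ± 0.07), Cyp2u1, a fatty acid hydroxylase, from 7.22 and 8.55 TPM to 1.02 and 1.23 TPM (-2.70 ± 0.14), and Cyp7b1, an oxysterol hydroxylase, from 39.1 and 41.4 TPM to 16.2 and 16.1 TPM (-1.31 ± 0.05). Cyp4f41-ps, Cyp2s1, Cyp2r1 and Cyp4f17 were the other 4 lower members. The groups did not overlap for any of these genes. The median of all genes shifted by -1.13 log2 units, so each difference contains that shift. With libraries scaled by the median of ratios, 4 members were lower and 3 higher, against 26.8% and 24% of all genes at that scaling, Cyp1b1 stood at -0.31 and Cyp7b1 at -0.23, both without a call, and Cyp20a1 turned from -0.51 to 0.58.

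Allelic shares of junction reads were taken in liver, kidney and lung, at the exon event of each gene with the most allelic reads. They were tested as log2((C57BL/6J reads + 1)/(SPRET/EiJ reads + 1)) minus the library median in limma over all genes, and called at an adjusted p under 0.05 and a ratio of 2-fold or more. In liver 13 of 55 members were called (7 toward C57BL/6J and 6 toward SPRET/EiJ), against 4.93% of all genes. With a minimum of 50 allelic reads it was 21 of 52, against 9.62%, and with moderation along read depth 25 of 55, against 11.4%. With the median over a gene's events it was 9 of 55, against 5.93%. In kidney 16 of 31 were called (5 and 11), against 11.4%, and in lung 8 of 18 (4 and 4), against 10.2%. With 2 replicates a member needed close replicates to pass, and 32 of 55 members in liver, 17 of 31 in kidney and 9 of 18 in lung had a mean ratio of 2-fold or more. These counts by ratio alone were not made over all genes, so whether they are unusual was not tested. The events held at least 20 allelic reads in each library, and the median member had 6619 in liver, 1118 in kidney and 645.5 in lung in its shallower library.

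Among called members the widest ratio was that of Cyp2d12 in kidney. It gave 60 C57BL/6J and 27949 SPRET/EiJ reads in kidney replicate 1, and 38 and 27695 in replicate 2, a C57BL/6J share of 0.214% and 0.137% (log2 ratio -9.18 ± 0.20, limma adjusted p = 0.00998). Its neighbour Cyp2d9 went the opposite way, with 560 against 3 and 326 against 7 reads, a share of 99.5% and 97.9% (6.22 ± 0.54). Both genes lie in the Cyp2d cluster, and reads of a paralog that fit only 1 genome would give such shares too, which was not tested. Cyp3a13 (-5.78 ± 0.08), Cyp7b1 (-4.96 ± 0.13) and Cyp2c44 (-4.44 ± 0.19) also leaned to SPRET/EiJ in kidney. Cyp2c44, with shares of 5.39% and 3.71% in kidney, was at 52.8% and 56.9% in liver, each at its own event. Cyp4a14 leaned to C57BL/6J in both organs, with 92.3% and 91.3% in kidney and 83.0% and 87.0% in liver.

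All 13 members called in liver lie in the tandem clusters, as do 45 of the 55 tested there. Cyp2c69 had C57BL/6J shares of 96.0% and 96.3% (log2 ratio 4.61 ± 0.11), Cyp2c68 of 91.1% and 87.6%, Cyp3a59 of 88.3% and 87.9% and Cyp2c40 of 84.3% and 82.0%. Cyp4a12a had 4.54% and 4.24% (-4.45 ± 0.10), Cyp2c55 11.3% and 9.86%, Cyp4a31 18.2% and 18.1%, Cyp2c38 21.5% and 19.3%, and Cyp2c70 23.0% and 23.8%. Cyp4a12b, with 2 against 512 and 5 against 311 reads, had a log2 ratio of -6.58 ± 0.56 and did not pass (limma adjusted p = 0.0537). Within the Cyp2c cluster the 2 directions thus lay side by side. Cyp3a11, with 45249 against 134101 and 47718 against 122406 reads and shares of 25.2% and 28.0%, did not pass (-1.48 ± 0.12, limma adjusted p = 0.052), and Cyp2e1 was at 52.7% and 55.5%. Outside the chromosome 7 segment the replicates of liver differed by a median of 2.18 percentage points over 49 members.

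Members in the segment behaved otherwise. All 6 with enough allelic reads in liver had C57BL/6J shares from 99.5% to 100% in liver replicate 1, and from 31.0% to 97.1% in replicate 2. Cyp2f2 gave 42790 C57BL/6J and 13 SPRET/EiJ reads in replicate 1, and 19258 and 14041 in replicate 2. Cyp2a5 gave 8635 against 10 and 3120 against 6941. None of the 6 was called, and their values without liver replicate 1 are those of replicate 2 alone. In lung Cyp2a5 was at 1.40% and 3.02% (log2 ratio -5.59 ± 0.34) and Cyp2f2 at 69.2% and 69.4% (1.14 ± 0.10). In kidney Cyp2f2 differed between libraries, with 29 against 772 reads in replicate 1 and 1598 against 720 in replicate 2, beside its lower level in replicate 1.

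**Figure D4:**
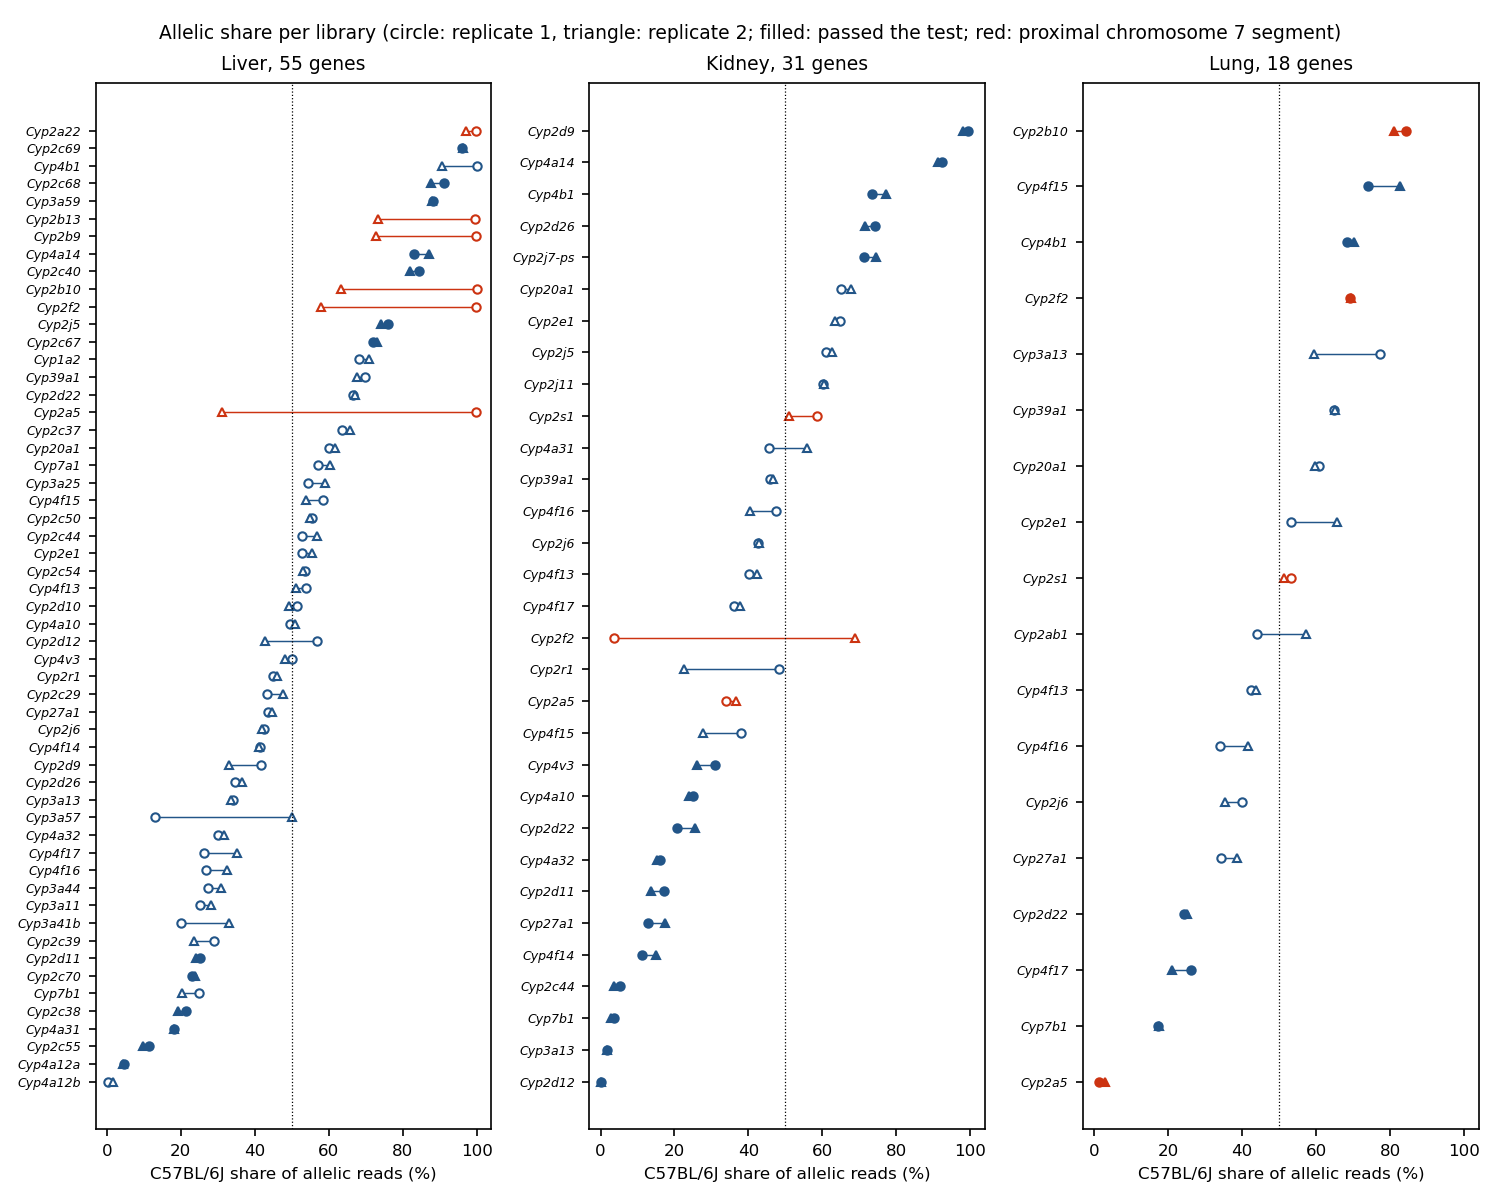
Share of C57BL/6J among allelic junction reads (x axis, %) for 55 members in liver, 31 in kidney and 18 in lung, with circles for replicate 1, triangles for replicate 2, filled symbols for members that passed the test and red for members in the chromosome 7 segment. Liver replicate 1 lies at 99.5% or more for all 6 members in red, while most other members have close replicates.

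Exon inclusion of the members was mostly complete. PSI, the share of transcripts that include an exon, was taken from inclusion and skipping junction reads, with 20 or more reads in both replicates. In liver 355 events of 55 members had a median PSI of 0.996, and 91.0% lay above 0.9, against 80.8% of all events there. In kidney 93.2% of 133 events lay above 0.9, against 83.0% of all events, in heart 77.8% of 45 against 77.1%, and in ESC 80.9% of 47 against 86.2%. A model of inclusion against skipping counts across tissues called 12 of 128 member events in 6 genes at an adjusted p under 0.05 and a switch score, the largest minus the smallest mean PSI over tissues, of 0.1 or more, against 9.48% of all events, and 35 had an unadjusted p under 0.05. For exon events, here and below, the share of all events at an unadjusted p under 0.05 was not taken. The median switch score was 0.0193 over member events and 0.0145 over all events.

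Cyp4f13, a fatty acid and leukotriene hydroxylase gene on the minus strand of chromosome 17, held 5 of the 12. These 5 are not separate observations, since some shared their skipping reads. In lung the events at chr17:32932413 and chr17:32932629 both had 14 and 19 skipping reads. Those at chr17:32946789 and chr17:32946805 both had 36 and 22. Its 54-base exon at chr17:32932629-32932682 had a PSI of 0.666 and 0.591 in cortex and of 1.00 and 0.988 in liver (switch score 0.366, adjusted p = 0.000111 by the quasi-binomial model moderated with limma). Its exon at chr17:32946789-32947003 was lowest in spleen, at 0.464 and 0.711, and the lung values of 0.631 and 0.733 overlapped with those of spleen. Cyp4a10 included the 45-base exon at chr4:115520252-115520296 at 0.632 and 0.654 in kidney and 0.282 and 0.324 in liver (switch score 0.340), and the groups did not overlap. This call was lost without kidney replicate 2. Cyp4a32 included the exon at chr4:115606645-115606772 at 0.982 and 0.938 in kidney and 0.769 and 0.726 in liver. Cyp2d22 included the 153-base exon at chr15:82373904-82374056 at 0.797 and 0.582 in ESC, below the lowest organ (heart, 0.891 and 0.9). The largest switch score, 0.446, was for the 176-base exon of Cyp7b1 at chr3:18079305-18079480, and it rested on ESC replicates of 0.235 and 0.860 with 42 and 40 reads, while the organs lay at 0.829 or more. With a minimum of 50 reads ESC was left out and the exon was not called.

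Some events had replicates that went apart by more than 0.2 in PSI, 10 of 355 in liver and 6 of 47 in ESC. Among the events of all genes it was 286 of 21565 in liver and 1163 of 47744 in ESC. The event of Cyp2e1 at chr7:140770052-140770228 had 2421 inclusion and 0 skipping reads in liver replicate 1, and 0 inclusion and 94 skipping reads in replicate 2, in the transcripts joining the exons that start at chr7:140763739 and chr7:140774558. No other event of the gene went apart by that much in liver.

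Alleles differed in the inclusion of a few exons. Within a tissue the alleles of each library were compared at events with 20 or more reads on each allele in each replicate. Events were called at an adjusted p under 0.05 and a PSI difference of 0.1 or more. In the tissues, but not in fibroblasts, events also needed a PSI from allelic reads within 0.1 of that from all reads. This kept 277 of 281 member events in liver, and 6 of the 7 called. In liver 6 of 277 member events were called (1.64% of all events), in lung 3 of 56 (2.89%), in heart 2 of 28 (2.73%), in kidney 1 of 103 (2.2%), in spleen 1 of 33 (2.42%) and in ESC 1 of 25 (0.669%). In cortex 0 of 32 were (2.36%), with 8 at an unadjusted p under 0.05. In fibroblasts 1 of 31 was called with DMSO (2.74%) and 1 of 37 with PladB (2.7%). Since both alleles come from the same library, the fit with a replicate block also applies, and it called 3 in kidney, 2 in spleen and 3 in ESC.

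The 83-base exon of Cyp4f17 at chr17:32528276-32528358, whose length is not a multiple of 3, was called in 6 of the 7 groups in which it was measured. In lung its PSI was 0.5 and 0.318 on the C57BL/6J allele and 0.925 and 0.953 on the SPRET/EiJ allele, a mean difference of -0.53 (adjusted p = 3.03e-06 by the quasi-binomial model moderated with limma, 56 to 209 reads per allele and library). The C57BL/6J allele was lower by the same test in ESC (0.397 and 0.518 against 0.937 and 0.981), in kidney (0.553 and 0.663 against 0.966 and 0.968), in liver (0.689 and 0.554 against 0.966 and 1.00), in DMSO fibroblasts (0.668 and 0.633 against 0.966 and 0.951) and in PladB fibroblasts (0.668 and 0.547 against 1.00 and 1.00). In these 6 groups every C57BL/6J value lay below every SPRET/EiJ value. In heart the values were 0.673 and 0.852 against 0.971 and 0.873, the alleles differed by -0.02 in replicate 2, and the exon was not called. The allele by tissue interaction was not called for this exon (unadjusted p = 0.577 by the quasi-binomial model moderated with limma).

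The 142-base exon of Cyp2d22 at chr15:82372785-82372926 was also included less on the C57BL/6J allele. The mean difference was -0.23 in heart (0.769 and 0.729 against 0.976 and 0.991), -0.24 in spleen (0.798 and 0.714 against 0.993 and 1.00) and -0.15 in lung (0.836 and 0.843 against 0.985 and 0.989), all called. It was -0.08 in kidney, -0.05 in liver and -0.04 in cortex, below the limit of 0.1. The interaction did not pass (unadjusted p = 0.264 by the quasi-binomial model moderated with limma), so a difference between tissues was not shown. These values are for the exon joined to the next exon at chr15:82373111. Joined to the exon at chr15:82373673 instead, its PSI was 0.987 or more on both alleles in cortex, kidney, lung and liver.

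**Figure D5:**
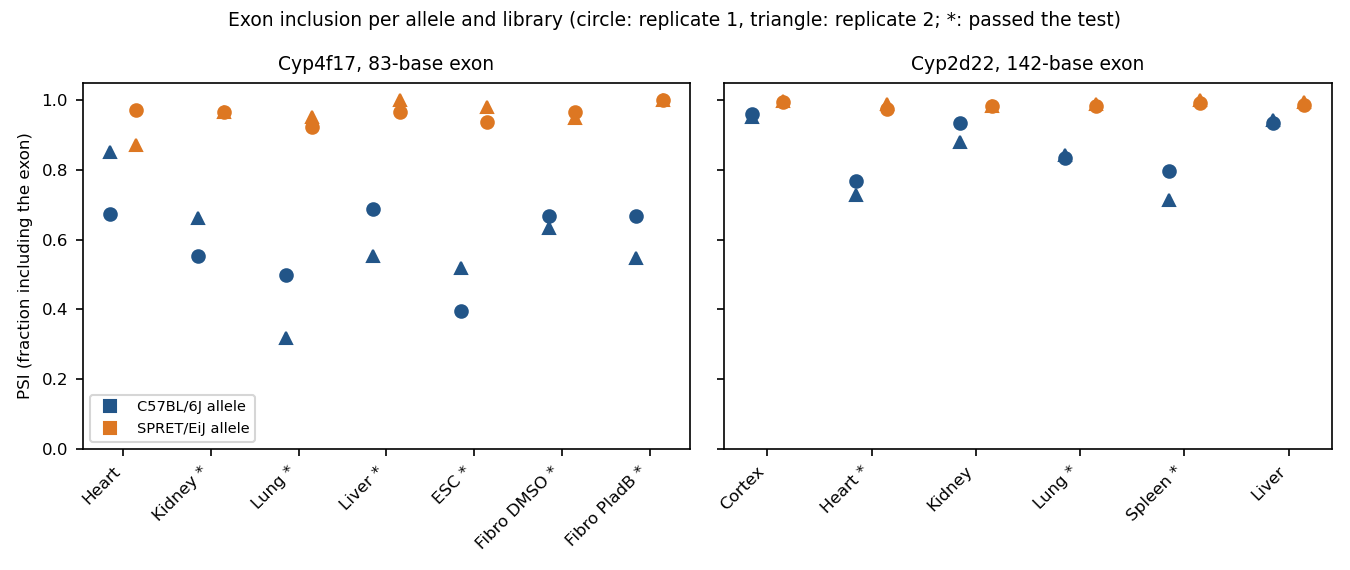
PSI (y axis, from 0 to 1) of the 83-base exon of Cyp4f17 and the 142-base exon of Cyp2d22 on the C57BL/6J and SPRET/EiJ alleles in each library, with circles for replicate 1, triangles for replicate 2 and a star for groups that passed the test. The C57BL/6J values of Cyp4f17 lie between 0.318 and 0.852 and the SPRET/EiJ values at 0.873 or more.

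The other exons were each called in 1 tissue. The allele by tissue interaction was not called for those of Cyp2b10 (unadjusted p = 0.0913 by the quasi-binomial model moderated with limma) and Cyp4f13 (0.320 by the same model). A difference between tissues was thus not shown for either. In liver the 142-base exon of Cyp2c40 at chr19:39786759-39786900 had a PSI of 0.968 and 0.997 on C57BL/6J and of 0.263 and 0.119 on SPRET/EiJ, the latter on 84 and 151 reads, a mean difference of 0.79 (adjusted p = 0.000362 by the quasi-binomial model moderated with limma). The 45-base exon of Cyp4a10 that differed between kidney and liver had 0.0363 and 0.115 on C57BL/6J and 0.396 and 0.521 on SPRET/EiJ in liver (-0.38). The 177-base exon of Cyp2d10 at chr15:82404428-82404604 had 0.842 and 0.847 against 0.998 and 0.996 (-0.15), and the 161-base exon of Cyp2c38 at chr19:39438214-39438374 was called with either of its flanking exons (-0.11 and -0.10). In heart the 27-base exon of Cyp2b10 at chr7:25925373-25925399 had 0.177 and 0.498 against 0 and 0, on 21 to 52 reads, and in lung the 128-base exon of Cyp4f13 at chr17:32932413-32932540 had 0.730 and 0.469 against 0.949 and 1.00. For this Cyp4f13 event in lung the PSI from the reads of both alleles was 0.842 and 0.730, against 0.908 and 0.862 from all reads. Cyp2c40, Cyp2c38, Cyp2d10, Cyp4a10, Cyp2b10 and Cyp4f13 lie in the tandem clusters, as do Cyp4f17 and Cyp2d22. Reads shared with a paralog would enter the values of all these exons.

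Over 93 member events with enough allelic reads in several tissues, the allele by tissue interaction was called for 1, against 0.252% of all events. This was the 77-base exon of Cyp4a10 at chr4:115529442-115529518, where the C57BL/6J minus SPRET/EiJ difference was -0.04 and -0.08 in kidney and 0 and 0.08 in liver (adjusted p = 0.000162 by the quasi-binomial model moderated with limma). The call rested on skipping reads of the SPRET/EiJ allele in liver replicate 2, and without that library 0 member events were called. The allele by treatment interaction in fibroblasts was called for 0 of 26 member events, against 0.228% of all events, and 0 had an unadjusted p under 0.05.

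PladB lowered the inclusion of 2 of 60 member events in 9 genes, against 8.23% of all events, and 8 had an unadjusted p under 0.05. Both were exons of Cyp7b1 between the same flanking exons, so they shared their skipping reads and are not separate observations. The exon at chr3:18096523-18096729 had a PSI of 0.869 and 0.848 with DMSO and of 0.613 and 0.627 with PladB (-0.24, adjusted p = 1.18e-05 by the quasi-binomial model moderated with limma). The exon at chr3:18097204-18097794 went from 0.916 and 0.902 to 0.699 and 0.698 (-0.21, adjusted p = 6.53e-07 by the same model moderated with limma). The treated and control dishes did not overlap for either. Where these exons were joined to each other, the change was -0.009 at chr3:18096523 and -0.04 at chr3:18097204, without a call. Both exon lengths, 207 and 591 bases, are multiples of 3. The median change over member events was -0.00529 and over all events -0.00524. Of 2243 retained intron events in the fibroblast table, 0 were of members.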

How the data were processed

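RNA-seq libraries of 7 tissues and of a fibroblast line with DMSO or PladB, with 2 replicates each, were analysed from processed tables. Per the labels and the study's methods, the authors aligned reads with HISAT2 2.0.1 to the mm10 genome and to a genome built for SPRET/EiJ, assigned reads by whichever match needed fewer edits, counted genes on Ensembl annotation with fractional counts, and deposited the levels as TPM. The authors made the exon tables with rMATS, and deposited junction read counts and effective lengths, from which PSI was computed here. Reads of heart, kidney and cortex were longer than those of spleen, lung and ESC, and the authors trimmed them to that length. The tables also hold p-value, FDR and inclusion difference columns of the authors' own comparisons, which were not used.

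TPM was tested as log2(TPM + 0.1) in limma 3.58.1 (R 4.3.3) with a variance trend, over genes with 0.5 TPM or more in both replicates of a group. For junction counts a logistic model of quasi-binomial type was fitted, its dispersion moderated by limma along read depth, at events with 20 or more reads in each library, in Python 3.11.15 with numpy 2.4.6, scipy 1.17.1 and pandas 2.3.3. p-values were adjusted by Benjamini-Hochberg over all features tested. The scripts were tested on simulated data. Gene positions are those of RefSeq, and exon positions those of the deposited tables. The interpretation of allele columns, 1 for C57BL/6J and 2 for SPRET/EiJ, was taken from the study. With 2 replicates per group, p-values measure the spread between these samples only, and counts cover counting error only.

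Members, role lists and tests were chosen with earlier results of these data known. The adrenal list, the chromosome 7 run at 95%, the pseudocount of 0.5 and the depth trend for shares were added after the data were seen. Named genes were the 10 highest members by mean TPM in liver and kidney, the 8 in lung and the 3 in each other group, and members of the role lists, and named exons were those called, up to the 10 largest. The organs share donor animals, but whether a replicate number marks an animal is not given in the sources used here. Deviations of same-numbered libraries correlated between -0.033 and 0.156 over 21 pairs of tissues, so numbers were not taken as pairs in the tissue fits. The alleles of a library are paired by design.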

Additional observations from a re-analysis of the deposited data

Results flagged for a closer look

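The C57BL/6J against SPRET/EiJ ratio of Cyp2d26, a member of the Cyp2d group, lay on opposite sides in both replicates of kidney and liver, at 1.41 in kidney and -0.87 in liver, a difference of 2.29 on the log2 scale. The difference itself was not tested, and both values come from the same exon event.

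Cyp4f15 stood likewise at -0.99 in kidney and 1.79 in lung, a difference of -2.78, on 21 allelic reads in the shallower kidney library. This difference was not tested either.

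For the 77-base exon of Cyp4a10 the allelic PSI difference was -0.059 in kidney and 0.038 in liver, a difference of -0.0968. The interaction test passed, and it did not without liver replicate 2.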

How the results depend on the processing

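With 2 libraries per group, small counts moved easily. Members higher in heart numbered 2, and 1 with a pseudocount of 1, 1 with 0.5 and 4 with scaling by the median of ratios. Those higher in ESC numbered 8, and 5 with a pseudocount of 1 and 4 with the median of ratios. After PladB the median of ratios gave 4 lower and 3 higher in place of 8 and 0, beside 26.8% and 24% of all genes. Unequal liver shares numbered 13, and 21 with a minimum of 50 allelic reads, 25 with a depth trend and 9 with the median over a gene's events. The liver share of Cyp2c67 reversed to -0.76 when the median over its events was taken. A minimum of 10 reads gave 1 allelic exon in cortex, 2 in kidney and 2 in spleen. A minimum of 50 gave 1 in heart and 0 with PladB, and the prior without a depth trend gave 1 in heart. With the replicate block the counts were 3 in kidney, 2 in spleen and 3 in ESC, and in the tissue fits the block left 65 members higher in liver and 31 in kidney and gave 14 exons among tissues in place of 12. The interaction count lay between 0 and 1 when single libraries were left out, and was 0 without liver replicate 2. The cause was not tested in any of these. Leaving out single libraries gave 63 to 66 members higher in liver, 28 to 35 in kidney, 17 to 19 in lung and 10 to 18 exons among tissues, the 18 without ESC replicate 1. Of the values for single genes and exons, 837 kept direction and call without a library, 12 lost the call and 1 gained it, and under other settings 508 kept both, 18 lost the call and 1 reversed.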
